A study of Homo sapiens with 2 samples.

Results

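Membrane and secreted proteins fold in the endoplasmic reticulum (ER), and the 36 genes described here encode the chaperones, disulfide-forming enzymes, N-glycan transfer and trimming enzymes, degradation factors and stress sensors that carry out and monitor that folding. They were chosen by function, with earlier results of these data known, and form a fixed list of gene symbols. All 36 were found among the 19362 genes of the deposited table. RNA sequencing was done on FTC-133, an established human cell line from a follicular thyroid carcinoma. The cells had been transfected with siRNA against CHI3L1, the gene of a secreted chitin-binding glycoprotein (1 library), or with a control siRNA (1 library), and no other treatment is given in the labels. No source used here gives the time after transfection or the number of cultures behind a library. The study compared the libraries to ask which transcripts differ after CHI3L1 silencing.

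As background, a protein entering the ER receives a preassembled glycan from the oligosaccharyltransferase. Glucosidases I and II trim its glucoses, and the lectin chaperones calnexin and calreticulin hold the protein while 1 glucose remains. Proteins that stay misfolded are handed to ER-associated degradation. When unfolded proteins accumulate, the sensors ATF6, IRE1 (encoded by ERN1) and PERK (encoded by EIF2AK3) start the unfolded protein response, which raises transcription of many ER chaperone genes. Thyroid follicular cells rely on this machinery to make thyroglobulin.

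Levels are in CPM, read counts scaled to the size of each library. To get the log2 fold, 1 CPM was added to both values and the CHI3L1 siRNA value was divided by the control siRNA value, which understates differences of low genes. A gene is called higher or lower when this ratio is at least 1.5-fold, and read ratios carry 95% exact (Clopper-Pearson) intervals that cover counting error only. There was a single library in each group. The differences below therefore have no replicates behind them and no p-value, and they describe these 2 libraries and not the conditions. The CHI3L1 siRNA library held 19467345 reads and the control siRNA library 15837449. CHI3L1 itself was at 48.6 CPM in the CHI3L1 siRNA library and 140.1 CPM in the control siRNA library, a read ratio of 0.347 (0.321 to 0.374). Of the thyroid markers, NKX2-1 and PAX8 were at 112 and 71.2 CPM in the CHI3L1 siRNA library, against 88.6 and 82.8 CPM in the control siRNA library. TSHR was at 9.23 and 8.73 CPM in the same order, while TG, the thyroglobulin gene, and FOXE1 were under 1 CPM in both, and SLC5A5 was not analysed here. Of the blood and endothelial markers, PTPRC had 8 and 12 reads, VWF 37 and 23, and PECAM1 74 and 116 in the CHI3L1 siRNA and control siRNA libraries, and CD3E, CD14 and CDH5 were not analysed here.

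All 36 genes averaged 1 CPM or more across the libraries, the minimum set for a call. In the CHI3L1 siRNA library, 14 of the 36 were higher, 2 were lower and 20 did not reach 1.5-fold. Over all 14815 genes with that mean, 7.73% were higher and 13.4% lower. The 36 genes were chosen with earlier results of these data known, so their counts are no test against those shares. Without GANAB, 13 of 35 were higher and 2 lower, with a median log2 fold of 0.50. With the libraries centred on genes averaging 50 CPM or more, which takes 0.0999 off every log2 fold, 11 of the 36 were higher and 3 lower. No share of all genes was counted after the centring, so the shares above are not a background for these centred counts. Without the centring, the median log2 fold was 0.50 for the 36 genes and 0.01 for all genes. The log2 fold was above 0 for 30 of the 36 genes, against 51.2% of all genes. Together the 36 genes summed to 12437 CPM in the CHI3L1 siRNA library and 8298 CPM in the control siRNA library, which was 1.25% and 0.829% of reads. In bulk libraries such as these, a different mix of cells and a different amount of RNA per cell cannot be told apart. Only GANAB was at least 2-fold higher and only DAD1 at least 2-fold lower, where 1.03% and 4.41% of all genes were.

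The promoters are shown next because the unfolded protein response acts on several of these genes through a short sequence, the ER stress response element (ERSE), made of the half-sites CCAAT and CCACG with 9 bases of any kind between them. RefSeq windows from 250 bases before to 50 bases after a start site (GRCh38.p14) were matched by symbol for 32 of the 36 genes, all but MOGS, PDIA3, RPN1 and STT3B. Only 1 window per gene was used, so other start sites were not searched. The windows of CANX and SERP1 lay well inside the annotated genes, which begin at 179678628 (CANX) and 150603228 (SERP1, minus strand). Both strands were searched, and only exact matches were counted, so a site with a changed base in a half-site is not included. An ERSE was found in 7 of the 32 windows (21.9%), against 22 of 27305 windows of all genes (0.0806%) and 13 of the 11059 windows of genes averaging 1 CPM or more (0.118%). It was in 2 of 115 windows of other genes of the same pathways (1.74%), those of ERO1B and ALG12. The ALG12 match is the CRELD2 site. The element is known to act on several of the 36 genes, which were chosen by function, so their high share is no test. The matches are written below in the direction of the motif, with its fixed bases in capitals and the spacer in lower case, and HSP90B1 held a pair of them.
HSPA5, chr9:125241391-125241409: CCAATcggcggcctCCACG
HSP90B1, chr12:103930216-103930234: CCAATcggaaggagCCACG
HSP90B1, chr12:103930321-103930339: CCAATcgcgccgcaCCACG
CANX, chr5:179698778-179698796: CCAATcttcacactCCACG
CALR, chr19:12938384-12938402: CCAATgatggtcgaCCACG
CRELD2, chr22:49918554-49918572: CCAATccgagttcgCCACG
SERP1, chr3:150546710-150546728: CCAATtcgctgtctCCACG
XBP1, chr22:28800603-28800621: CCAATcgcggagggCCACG

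A shorter relative, ERSE-II, made of ATTGG and CCACG with 1 base between them, was found in HERPUD1, HYOU1 and SDF2L1. That was 3 of 32 windows (9.38%), against 0.0549% of all windows and 0 of 115 windows of other genes of the same pathways. The core TGACGTGG of the unfolded protein response element was in 1 of 32 windows (3.12%) against 0.795% of all windows and 7 of 115 windows of other genes of the same pathways (6.09%). That window was HYOU1, where the core shared bases with an ERSE-II. Exact matches are in capitals, the ERSE in the HSPA5 window and the ERSE-II in the HERPUD1 window. The GANAB window, shown because GANAB differed most between the libraries, held no exact match to any of the 3 motifs.
HSPA5, chr9:125241294-125241593, minus strand: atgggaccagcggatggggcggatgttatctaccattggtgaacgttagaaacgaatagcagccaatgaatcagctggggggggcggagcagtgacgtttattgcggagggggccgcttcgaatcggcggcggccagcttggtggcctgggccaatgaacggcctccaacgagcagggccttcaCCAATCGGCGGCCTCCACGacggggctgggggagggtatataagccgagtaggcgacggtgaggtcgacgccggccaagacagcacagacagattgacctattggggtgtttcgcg
HERPUD1, chr16:56931892-56932191, plus strand: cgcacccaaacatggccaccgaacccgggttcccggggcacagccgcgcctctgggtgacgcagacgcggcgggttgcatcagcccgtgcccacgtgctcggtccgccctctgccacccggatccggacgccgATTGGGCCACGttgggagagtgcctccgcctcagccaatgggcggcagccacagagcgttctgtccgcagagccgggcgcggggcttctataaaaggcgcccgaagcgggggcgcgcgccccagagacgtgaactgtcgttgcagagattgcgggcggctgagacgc
GANAB, chr11:62646564-62646863, minus strand: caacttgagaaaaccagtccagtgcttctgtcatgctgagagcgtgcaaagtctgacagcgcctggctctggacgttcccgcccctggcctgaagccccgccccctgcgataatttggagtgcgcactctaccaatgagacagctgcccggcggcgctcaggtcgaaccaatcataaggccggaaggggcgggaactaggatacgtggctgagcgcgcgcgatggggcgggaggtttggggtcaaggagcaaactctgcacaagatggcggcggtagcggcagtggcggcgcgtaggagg

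Of the 7 genes with an ERSE, 4 were higher (HSPA5, HSP90B1, CANX and CALR) and 0 lower, with a median log2 fold of 0.64 and a range from −0.40 (SERP1) to 0.77 (CANX). Of the 3 genes with an ERSE-II, 0 were higher or lower, with a median of 0.50. Of the 22 genes whose window held no exact match to either, 9 were higher and 2 lower. Their median was 0.52 and their range from −1.18 (DAD1) to 1.55 (GANAB). Those 22 genes held both the highest and the lowest log2 fold of the 36, so the ranges of the groups cannot be compared. Over all genes, 7.73% were higher and 13.4% lower. With a correction for transcript length, coding length and GC content, 3 of the 7 genes with an ERSE were higher (median 0.49). The same correction left 0 of 3 with an ERSE-II higher (median 0.21) and 7 of the 22 with neither (median 0.35). Of all coding genes, 6.16% were higher after it.

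Of the 3 lumenal chaperones of the HSP70 and HSP90 families, 2 were higher in the CHI3L1 siRNA library and 0 lower. HSPA5, which encodes BiP, the chaperone that binds unfolded chains and restrains the stress sensors, was at 949 CPM in the CHI3L1 siRNA library and 586 CPM in the control siRNA library, a read ratio of 1.62 (1.58 to 1.66). Its log2 fold was 0.69, or 0.49 once corrected for transcript length, coding length and GC content. HSP90B1 (GRP94) was at 889 CPM and 568 CPM in the same order, a read ratio of 1.56 (1.52 to 1.60). After the centring its log2 fold was 0.54, under the call. HYOU1, the nucleotide exchange factor of BiP, was at 129 and 86.5 CPM, and its log2 fold of 0.57 lay just under the call. After that correction the HYOU1 value was 0.21. All 3 genes had more CPM in the CHI3L1 siRNA library, with intervals that did not hold 1.

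**Figure D1:**
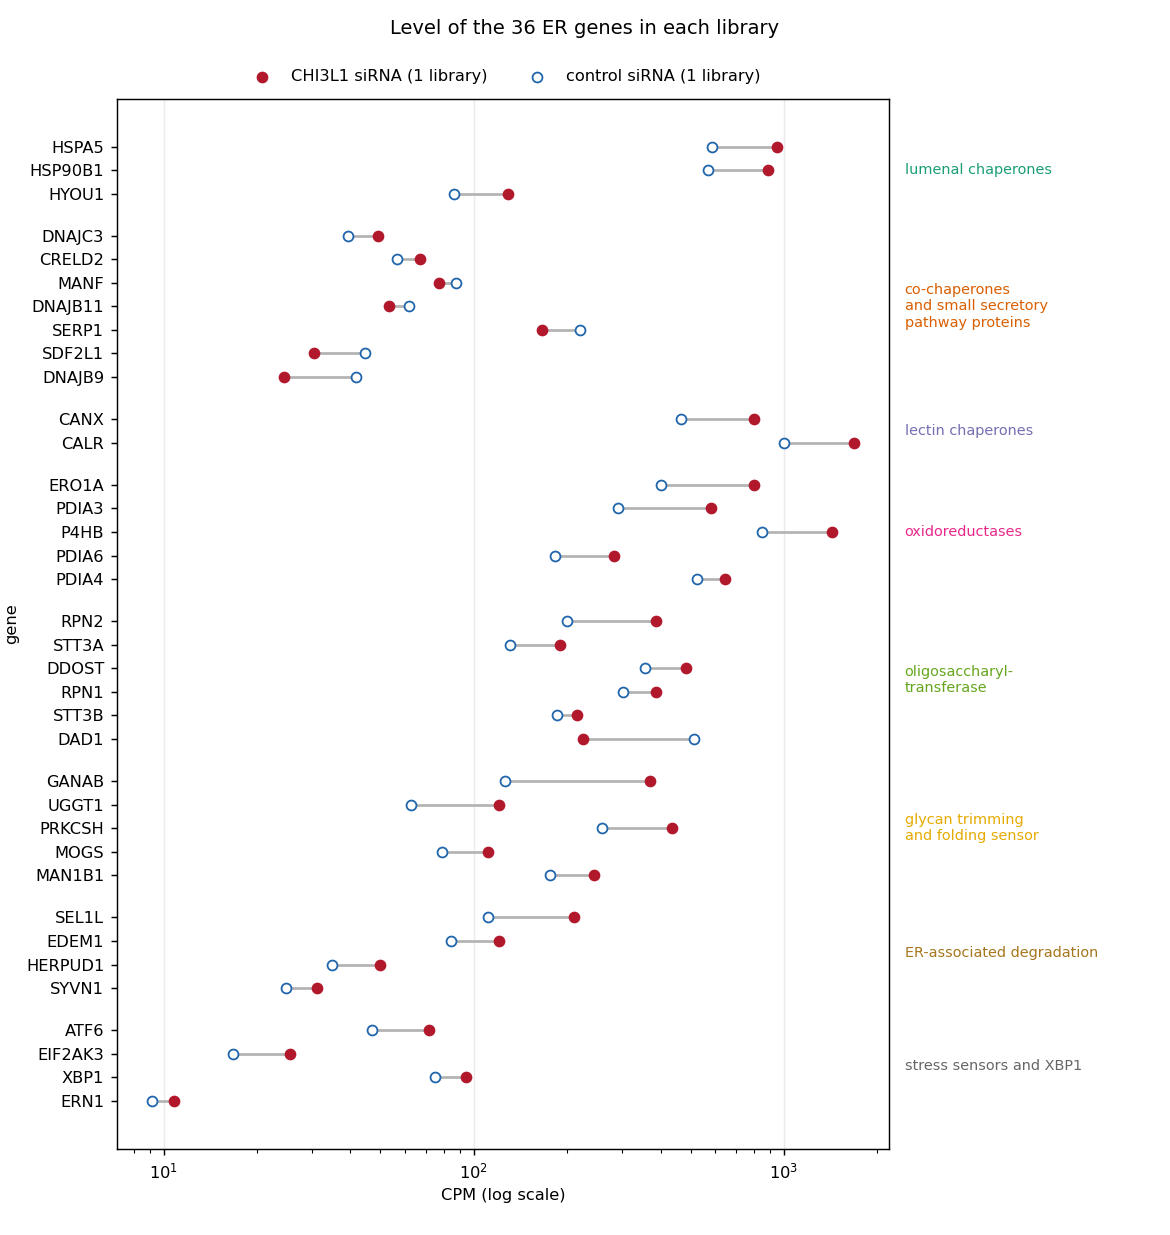
Level of each of the 36 ER genes, grouped by role, in CPM on a log axis. Filled red points are the CHI3L1 siRNA library, open blue points the control siRNA library, with 1 library each and no error bar. The red point lies to the right for 30 of the 36 genes, and most of the 6 genes with the reverse order are co-chaperones and small proteins.

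The next genes encode co-chaperones and small proteins of the secretory pathway. Of these 7 genes, 0 were higher and 1 was lower, with a median log2 fold of −0.21, or 0.14 with 0 lower and 4 above 0 after that correction. They summed to 468 CPM in the CHI3L1 siRNA library against 551 CPM in the control siRNA library. DNAJB9 (ERdj4), a J-domain partner of BiP that is strongly induced by ER stress, was at 24.4 and 41.6 CPM, a read ratio of 0.587 (0.520 to 0.661) and a log2 fold of −0.75, or −0.41 after that correction. DNAJB9 (ENSG00000128590, chromosome 7, 108569568 to 108574850, GRCh38) shares exon bases on the opposite strand with PNPLA8 and THAP5. These had more reads than DNAJB9 in both libraries, 1370 and 895 against 476 in the CHI3L1 siRNA library and 2788 and 746 against 658 in the control siRNA library. No source used here gives the strand setting of the counting, so the reads cannot be told apart.

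DNAJB11 (ERdj3), another J-domain partner, was at 53.2 CPM in the CHI3L1 siRNA library and 61.6 CPM in the control siRNA library. SDF2L1, which forms a complex with it, was at 30.6 and 44.6 CPM, a read ratio of 0.686 (0.614 to 0.766) and a log2 fold of −0.53. Neither partner reached the call. SDF2L1 passed it after the centring, at −0.63, and was at −0.05 after the correction. MANF, a small secreted protein that binds BiP, was at 77.0 and 87.5 CPM, a log2 fold of −0.18 that turned to 0.20 after the correction. SERP1 (RAMP4), a small protein of the translocon, was at 166 and 219.8 CPM, a log2 fold of −0.40 that turned to 0.14. Its exons also share bases on the opposite strand with EIF2A and SELENOT, both with fewer reads than SERP1. The remaining pair had more CPM in the CHI3L1 siRNA library. DNAJC3, a BiP co-chaperone also known as an inhibitor of PERK, was at 49.0 and 39.2 CPM, and CRELD2, induced by ER stress, was at 67.3 and 56.3 CPM.

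Both lectin chaperones were higher by nearly the same factor. CANX, the membrane-bound calnexin, was at 799 CPM in the CHI3L1 siRNA library and 467 CPM in the control siRNA library, a read ratio of 1.71 (1.67 to 1.76). CALR, the soluble calreticulin, was at 1684 and 999 CPM, a read ratio of 1.69 (1.65 to 1.72). Per kilobase of annotated transcript, CALR had the highest level of the 36 genes in the CHI3L1 siRNA library, at 885 CPM per kilobase, against 525 in the control siRNA library. In the control siRNA library the highest level per kilobase was that of DAD1, at 700.0, against 307 in the CHI3L1 siRNA library.

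Of the 5 oxidoreductases, 4 were higher and 0 lower, with a median log2 fold of 0.75. ERO1A, the oxidase that recharges protein disulfide isomerases, was at 798 CPM in the CHI3L1 siRNA library and 401 CPM in the control siRNA library, a read ratio of 1.99 (1.93 to 2.05). PDIA3 (ERp57), the isomerase that works with calnexin and calreticulin, was at 580.1 and 292 CPM, a read ratio of 1.99 (1.92 to 2.06). Both were close to 2-fold, the largest ratios of the oxidoreductases. P4HB, protein disulfide isomerase and also a subunit of collagen prolyl hydroxylase, was at 1429 and 849 CPM, a read ratio of 1.68 (1.65 to 1.72). PDIA6 was at 283 and 183 CPM, a read ratio of 1.55 (1.48 to 1.62), and after the centring its log2 fold was 0.53, under the call. PDIA4 (ERp72) was the exception, at 647 and 523 CPM, a read ratio of 1.24 (1.20 to 1.27) that did not reach the call.

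The oligosaccharyltransferase subunits did not move together. RPN2 was higher, at 386 CPM in the CHI3L1 siRNA library and 199.6 CPM in the control siRNA library, a read ratio of 1.93 (1.85 to 2.01). DAD1, a small membrane subunit, was lower, at 225 and 512 CPM, a read ratio of 0.439 (0.423 to 0.455). Its log2 fold was −1.18, or −0.51 after the correction. DAD1 (ENSG00000129562, chromosome 14, 22564905 to 22589269, GRCh38) has an annotated transcript of 731 nt, the shortest of the 36. The 4 others did not reach the call. DDOST was at 484 and 357 CPM, and RPN1 at 386 and 302 CPM. The catalytic subunit STT3A, which acts as the chain enters the ER, was at 190.0 and 131 CPM, and its paralogue STT3B, which acts on sites that were passed over, at 215 and 186 CPM. Summed over the 6 subunits, the level was 1885 CPM in the CHI3L1 siRNA library and 1687 CPM in the control siRNA library.

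All 5 genes of glycan trimming and glycan-based folding control had more CPM in the CHI3L1 siRNA library, and 3 were higher by the call. GANAB, the catalytic subunit of glucosidase II, was at 369.9 CPM (7211 reads) in the CHI3L1 siRNA library and 126 CPM (1993 reads) in the control siRNA library. The read ratio was 2.93 (2.79 to 3.09) and the log2 fold 1.55, the highest of the 36. GANAB (ENSG00000089597, chromosome 11, 62624826 to 62646726, GRCh38) shares no exon base with another gene of the table. It ranked 13 among all 14815 genes by log2 fold, and 3 among the 1994 genes averaging 100 CPM or more.

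PRKCSH, the subunit that keeps glucosidase II in the ER, was at 436 CPM in the CHI3L1 siRNA library and 258 CPM in the control siRNA library, a read ratio of 1.69 (1.63 to 1.75). UGGT1, which puts a glucose back on misfolded glycoproteins so that they bind the lectins again, was at 121 and 62.9 CPM, a read ratio of 1.92 (1.78 to 2.07), with a log2 fold of 0.93, or 0.51 after the correction. Both were higher, with smaller ratios than GANAB. MOGS, glucosidase I, which acts before glucosidase II, was at 111 and 79.0 CPM with a log2 fold of 0.49. MAN1B1, the ER mannosidase that marks glycoproteins for degradation, was at 245 and 176 CPM with a log2 fold of 0.47.

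**Figure D2:**
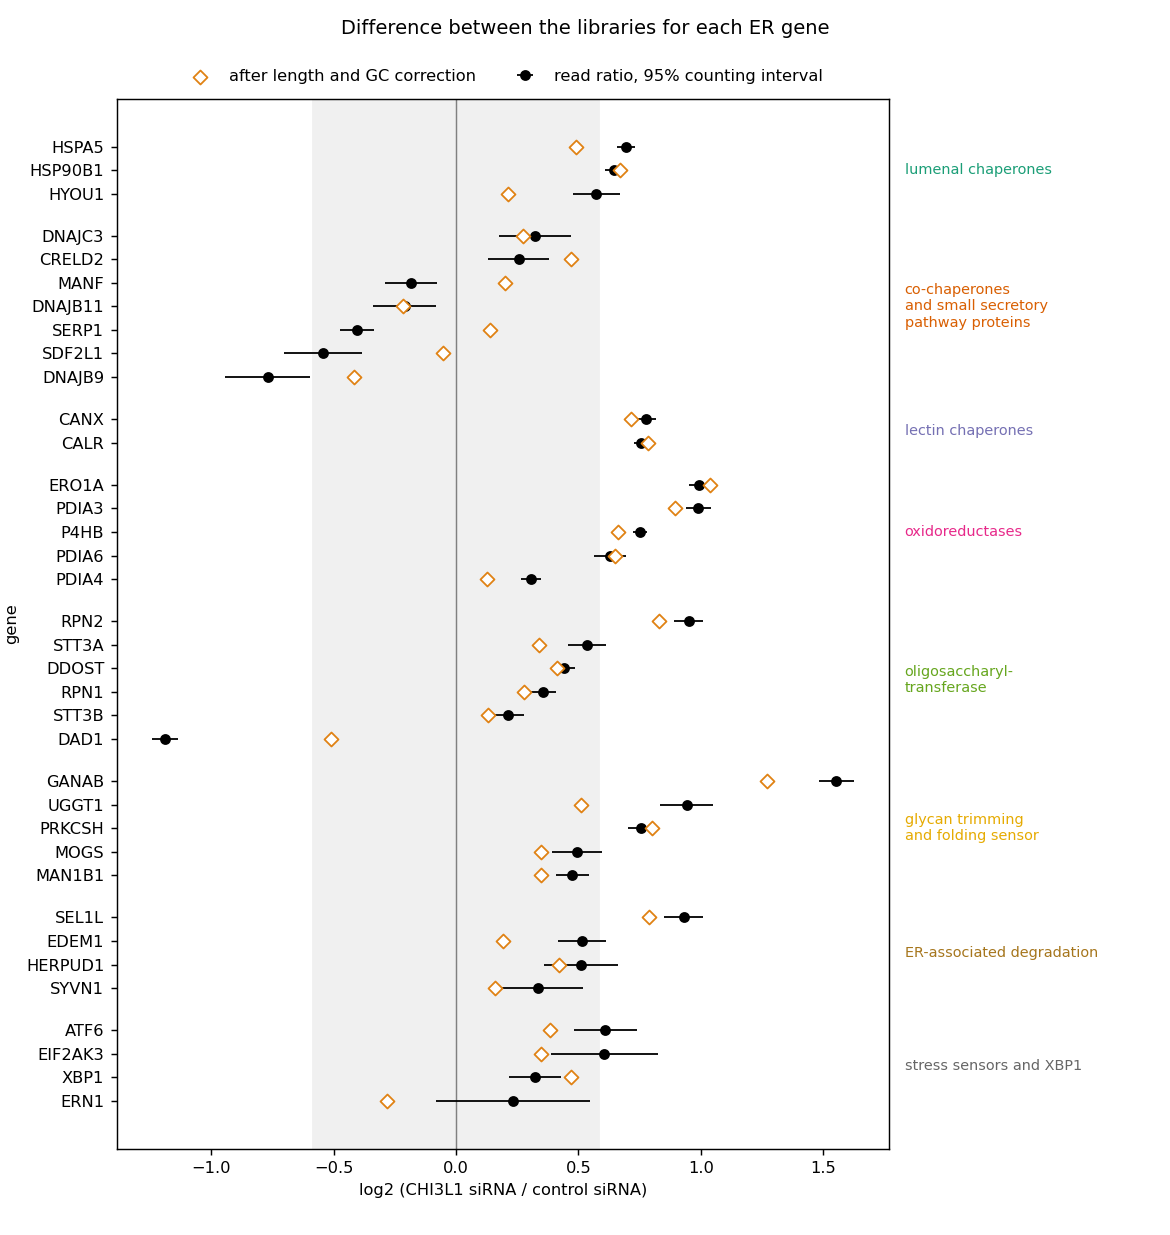
Difference between the libraries for each ER gene, as log2 of CHI3L1 siRNA over control siRNA. Black points are read ratios with 95% counting intervals, open diamonds are log2 folds after a correction for transcript length, coding length and GC content, and the grey band is within 1.5-fold. GANAB lies farthest to the right at a log2 fold of 1.55, or 1.27 after the correction, and DAD1 farthest to the left at −1.18, or −0.51 after it.

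Shares within pairs do not depend on how the libraries were scaled to each other, but they are not corrected for transcript length or GC content. GANAB held 45.9% of the reads of the GANAB and PRKCSH pair in the CHI3L1 siRNA library (95% Clopper-Pearson interval 45.1 to 46.7) and 32.8% in the control siRNA library (31.6 to 34.0). The subunits of glucosidase II thus differed from each other in their ratio by more than counting error. After the correction their log2 folds were closer, at 1.27 for GANAB and 0.80 for PRKCSH, against 1.55 and 0.75 before it. RPN1 held 50.1% of RPN1 and RPN2 reads in the CHI3L1 siRNA library (49.3 to 50.9) and 60.2% in the control siRNA library (59.1 to 61.3). STT3A held 46.9% of STT3A and STT3B reads (45.8 to 48.0) in the CHI3L1 siRNA library, against 41.4% (40.1 to 42.8) in the control siRNA library. The STT3A share was thus larger in the CHI3L1 siRNA library by more than counting error. After the correction the log2 folds were 0.34 for STT3A and 0.13 for STT3B, against 0.53 and 0.21 before it. STT3A shares exon bases on the same strand with CHEK1, which had 709 and 543 reads. CANX held 32.2% of CANX and CALR reads (31.8 to 32.6) in the CHI3L1 siRNA library and 31.8% (31.2 to 32.4) in the control siRNA library, with intervals that overlapped.

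**Figure D3:**
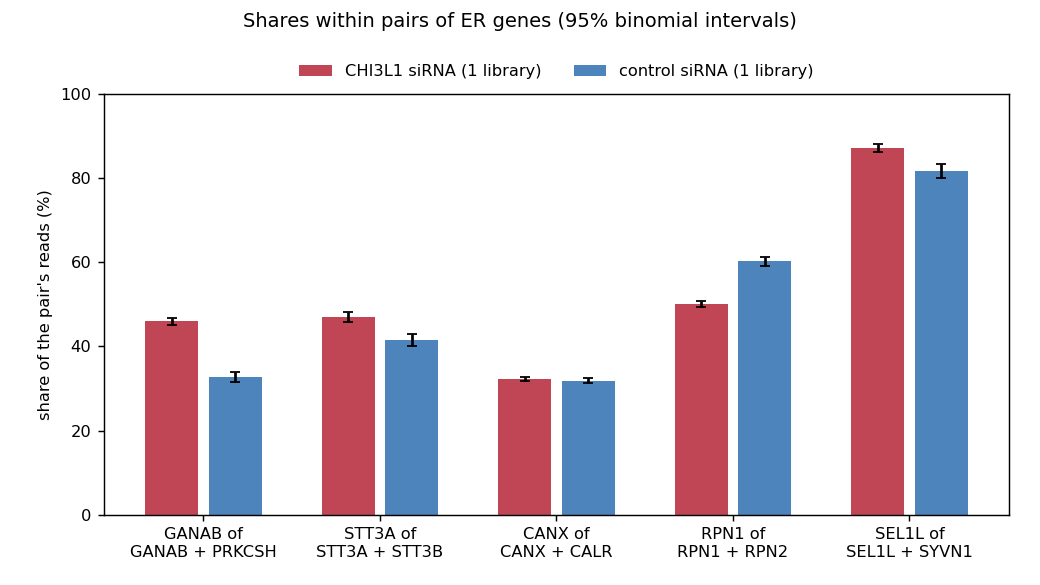
Share of the reads of a gene pair that came from the first gene, in percent, with 95% binomial intervals for counting error. Red bars are the CHI3L1 siRNA library and blue bars the control siRNA library, 1 library each. The GANAB share was 45.9% and 32.8%, while the CANX share was 32.2% and 31.8%.

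Of the 4 genes of ER-associated degradation, 1 was higher and 0 lower. SEL1L, the adaptor of the HRD1 ubiquitin ligase, was at 211 CPM in the CHI3L1 siRNA library and 111 CPM in the control siRNA library, a read ratio of 1.90 (1.80 to 2.01). SYVN1, which encodes the ligase HRD1 itself, was at 31.2 and 24.8 CPM, a read ratio of 1.26 (1.11 to 1.43). SEL1L held 87.1% of the reads of this pair (86.1 to 88.1) in the CHI3L1 siRNA library, against 81.7% (80.0 to 83.3) in the control siRNA library. SYVN1 values are uncertain, since its exons share bases with FAU on the same strand, which had 3803 reads against 609 for SYVN1 in the CHI3L1 siRNA library and 6898 against 392 in the control siRNA library. EDEM1, a mannosidase-like protein that routes glycoproteins to degradation, was at 120.3 and 84.2 CPM. HERPUD1 (HERP), a membrane partner of HRD1 and a target of the unfolded protein response, was at 49.7 and 34.9 CPM. Both had log2 folds near 0.50, under the call. After the correction EDEM1 was at 0.19 and HERPUD1 at 0.42.

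Of the 3 stress sensors and XBP1, 1 was higher and 0 lower, with a median log2 fold of 0.45. ATF6, the membrane-bound transcription factor released by cleavage, was higher, at 71.9 CPM in the CHI3L1 siRNA library and 47.1 CPM in the control siRNA library, a read ratio of 1.53 (1.40 to 1.67), with a log2 fold of 0.60, or 0.50 after the centring and 0.38 after the correction, both under the call. EIF2AK3 (PERK), the kinase that slows translation, was at 25.5 and 16.8 CPM, a read ratio of 1.52 (1.31 to 1.77). The EIF2AK3 log2 fold of 0.58 with the added 1 CPM lay just under the call, and was 0.35 after the correction. ERN1 (IRE1), the kinase and endonuclease that splices XBP1 mRNA, was at 10.8 and 9.17 CPM (210 and 145 reads). Its read ratio was 1.17 (0.946 to 1.46), the only interval among the 36 that held 1, so a difference was not detectable at this depth. Its log2 fold of 0.21 turned to −0.28 after the correction. ERN1 also had the lowest level per kilobase of the 36 genes in both libraries, at 1.37 and 1.16 CPM per kilobase. XBP1, the transcription factor made from the spliced mRNA, was at 94.1 and 75.2 CPM, a read ratio of 1.25 (1.16 to 1.35). Gene-level reads do not separate spliced from unspliced XBP1 mRNA.

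Log2 folds in these libraries followed transcript length over all genes, and the values for the 36 genes are given beside that trend. Across 12658 protein-coding genes, which are not independent replicates, the Spearman rank correlation of transcript length and log2 fold was 0.46, and across the 36 genes it was 0.38. Among genes with transcripts above 2000 and up to 4000 nt, the median log2 fold was 0.49 for the 17 of the 36 in that class and 0.03 for all 4940. Above 4000 nt it was 0.57 for 12 of the 36 and 0.25 for all 4627. Between 1000 and 2000 nt the median was 0.32 for 5 of the 36 and −0.24 for all 2492, so the median of the ER genes lay above that of all genes in each of these classes. Some ER genes lay below it, among them STT3B and ERN1, both at 0.21, above 4000 nt. The remaining pair, DAD1 and SDF2L1, had transcripts of at most 1000 nt, where the median was −0.86 for the pair and −0.62 for all 599.

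After a smooth trend in transcript length, coding length and GC content was subtracted, 11 of the 36 genes were higher and 0 lower, against 6.16% and 7.24% of the 12658 coding genes. The median corrected log2 fold of the 36 was 0.37, against 0.02 for all coding genes. GANAB kept the highest value at 1.27, followed by ERO1A at 1.04 and PDIA3 at 0.90. The corrected value was under the call for 3 genes that were higher before it, 0.49 for HSPA5, 0.51 for UGGT1 and 0.38 for ATF6. It was also within 1.5-fold for both genes that were lower before it, −0.51 for DAD1 and −0.41 for DNAJB9. The median of the co-chaperones turned to 0.14 after the correction. The share of genes called also moved with level. In all, 14.4% of the 1994 genes averaging 100 CPM or more were higher and 18.5% lower, against 12 higher and 1 lower of the 22 ER genes at that level. The part of length, base composition and level in these differences was not tested beyond the values given.

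**Figure D4:**
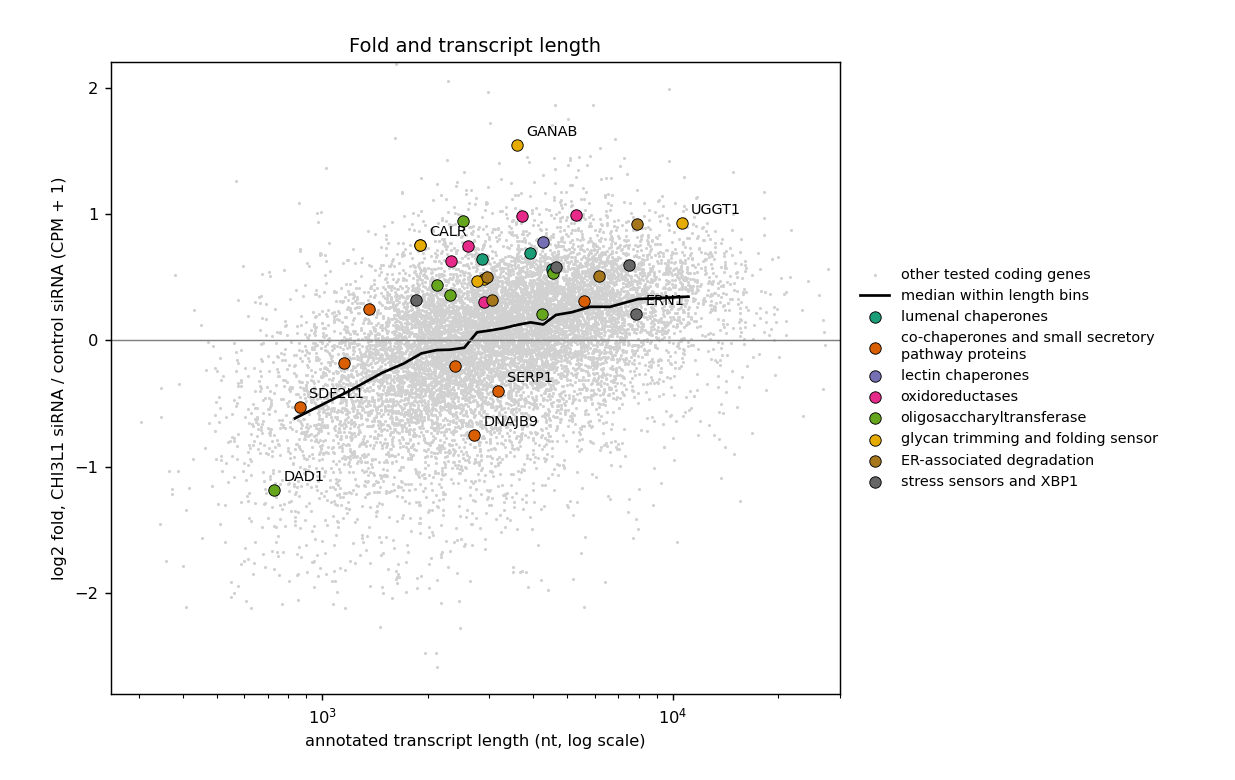
Log2 fold against annotated transcript length in nt (log axis) for tested protein-coding genes, in grey, and for the 36 ER genes, coloured by role. The black line is the median within bins of length. It climbs with length, and most ER genes lie above it, with GANAB highest of the 36 at 1.55 and DAD1 lowest at −1.18.

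Other genes of the same pathways, 131 in all, were examined in the same way. Of the 128 that averaged 1 CPM or more, 15 were higher and 16 lower, where 7.73% and 13.4% of all genes were, and the median log2 fold was 0.07. After the centring the counts were 11 and 20, with no share of all genes counted beside them. After the correction the counts were 15 and 3 and the median 0.15. The expression of ERO1B was not analysed here.

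At the translocon, the channel through which chains enter the ER, 2 of 18 genes were higher and 5 lower. SEC61A1, the channel-forming subunit, was at 366 CPM in the CHI3L1 siRNA library and 223 CPM in the control siRNA library, and SEC63 had a log2 fold of 0.62. The small subunits SEC61G (385 and 696 CPM) and SEC61B (133 and 231 CPM) were lower, as were the signal peptidase subunits SEC11C and SEC11A, with log2 folds of −0.94 and −0.79. After the correction none of these 18 genes passed 1.5-fold, and SEC61G was at 0.31. The other oligosaccharyltransferase subunits had a median of −0.41 over 6 genes, with OSTC (118 and 265 CPM) and KRTCAP2 lower and 0 higher. Their median transcript was 826 nt, and their corrected median was 0.29.

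Among the other lumenal chaperones and folding catalysts, 2 of 17 were higher and 3 lower. SERPINH1 (HSP47), the collagen chaperone, was at 980 CPM in the CHI3L1 siRNA library and 562 CPM in the control siRNA library, and the prolyl isomerase FKBP9 at 453 and 244 CPM. HSPA13, FKBP7 and RCN2 were lower, with log2 folds of −0.77, −0.66 and −0.65. After the correction HSPA13 and FKBP7 were at −0.37 and −0.16, within 1.5-fold, and the counts of the group were 4 higher (SERPINH1, FKBP9, PPIB and CALU) and 1 lower. Of 12 other oxidoreductases, QSOX1, a sulfhydryl oxidase, and PDIA5 were higher, with log2 folds of 0.99 and 0.65, and 0 were lower. QSOX1 was at 0.47 after the correction, within 1.5-fold, while ERP44 passed it at 0.65. Both groups had members on either side of 0.

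Synthesis of the lipid-linked glycan had a median of 0.01 over 22 genes, or −0.14 after the correction. ALG9 was higher, at 8.46 CPM in the CHI3L1 siRNA library and 4.17 CPM in the control siRNA library. DPM3 and DPM1 of the dolichol-phosphate mannose synthase were lower, with log2 folds of −1.34 and −1.04, as were ALG5 at −0.91 and ALG14 at −0.66. Of these 4 only ALG14 was lower after the correction, at −0.76, with DPM3 at −0.48, DPM1 at −0.28 and ALG5 at −0.51. The later trimming and cargo genes had a median of 0.43 over 15 genes, or 0.22 after the correction. In that group the Golgi mannosidases MAN2A1, MAN1A1 and MAN1A2 were higher, with log2 folds of 0.90, 0.82 and 0.60, and 0 genes were lower. After the correction MAN2A1 was at 0.58, just within 1.5-fold, and KDELR1 passed it at 0.68. Of 19 other genes of ER-associated degradation, the lectin OS9 was higher at 256 and 140 CPM, and DERL2 and RNF139 were lower, with log2 folds of −0.70 and −0.63, of which DERL2 was within 1.5-fold after the correction, at −0.49.

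Among 19 other stress transducers and effectors of the PERK and ATF4 branch, 4 were higher and 0 lower, with a median of 0.45. The same counts held after the correction, with a median of 0.18. SESN2 had a log2 fold of 1.25, TRIB3, a pseudokinase induced by ATF4, of 0.92, the transcription factor CREB3L1 of 0.73 and CHAC1 of 0.59. Of the other effectors of the PERK branch, DDIT3, ATF3 and PPP1R15A did not reach the call. DDIT3 (CHOP) was at 21.0 CPM in the CHI3L1 siRNA library and 26.7 CPM in the control siRNA library, a read ratio of 0.786 (0.685 to 0.903). Its log2 fold of −0.33 turned to 0.16 after the correction, and its exons share bases on the opposite strand with MARS1, which had 2031 reads against 410 in the CHI3L1 siRNA library and 1263 against 423 in the control siRNA library, and with MBD6. ATF3 was at 5.28 and 7.59 CPM, and PPP1R15A (GADD34), which restores translation, at 114 and 138 CPM. These 3 genes had log2 folds below 0, and ASNS and PPP1R15B, also uncalled, went the other way. ASNS was at 2.56 and 1.39 CPM (50 and 22 reads), a read ratio of 1.84 (1.10 to 3.20). Its log2 fold of 0.58 with the added 1 CPM lay just under the call. ASNS shares exon bases on the same strand with ENSG00000284707, which had 31 reads in the CHI3L1 siRNA library and 14 in the control siRNA library. PPP1R15B had a log2 fold of 0.25. All of these genes were named after their values were seen. ATF4 itself was at 344 and 285 CPM.

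**Figure D5:**
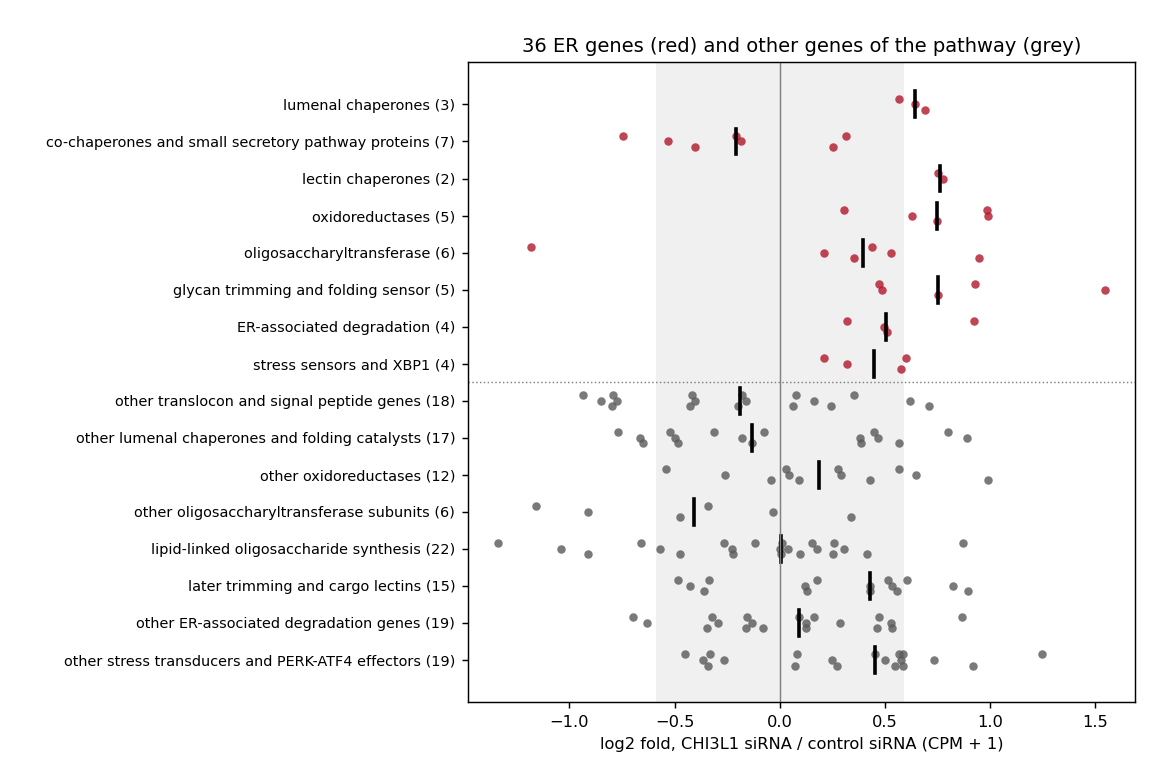
Log2 fold of each gene by role, for the 36 ER genes (red) and the other genes of the same pathways (grey), with the number of genes in parentheses. Black bars are medians and the grey band is within 1.5-fold. The medians of the red groups lie above 0 except for the co-chaperones and small proteins at −0.21 (0.14 after the correction), while those of the grey groups range from −0.41 to 0.45.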

How the data were processed

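The members and gene lists were chosen with earlier results of these data known, as were the choice of alternatives and the correction for length. RNA was extracted with Trizol and libraries were prepared from 1 µg of it with an Illumina TruSeq kit, per the labels' protocols. The authors deposited 1 table of CPM values. FastQC, MultiQC, Trimmomatic, HISAT2, featureCounts and GRCh38 are named in the submitters' processing notes, and no source used here gives the annotation release, the normalisation tool or the strand setting. Dividing a deposited value by the step of its library gave whole reads with 0.001 added (100% of values, within 0.01 read), the step being 0.0513 CPM per read in the CHI3L1 siRNA library and 0.0632 CPM in the control siRNA library. Reads recovered in this way gave the intervals. A count of 0 allows up to 3 reads. The table lists genes with at least 6 reads in at least 1 library. No count model was run, since there is 1 library per group.

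Symbols were found for 19265 of 19362 identifiers. Coordinates, transcript length and exon overlaps came from GENCODE release 29 (GRCh38). Length, coding length and GC content came from the principal transcript with the best support, then the longest, for 12658 of 14815 tested genes (85.4%). The correction was an additive spline (5 degrees of freedom per term) fitted to those coding genes that no list holds, where it took up 36.0% of the variance. The members past 1.5-fold, the fixed pairs, the sensors and XBP1 were named with intervals, and of other pathway genes at most 4 per role and direction. Steps were tested on simulated data. Python 3.11.15, NumPy 2.4.6, SciPy 1.17.1, pandas 2.3.3, scikit-learn 1.9.0 and matplotlib 3.10.9 were used. Alternatives were other pseudocounts, scalings, mean filters and folds, the correction, and long transcripts only.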

Additional observations from a re-analysis of the deposited data

How the results depend on the processing

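The settings on level at 100 CPM and on exon overlap were chosen after seeing the data. The median log2 fold of the 36 genes stayed between 0.37 and 0.64 under every setting run, and GANAB was at 1.45 after centring on genes averaging 50 CPM or more, which took 0.0999 off every log2 fold, and at 1.27 after the length and GC correction. At 2-fold, 1 of the 36 genes was higher and 1 lower. Of the 23 genes with no exon overlap, 9 were higher and 1 lower. Lower genes numbered 1 at a pseudocount of 10 CPM, 1 for transcripts of 2000 nt or longer, 1 for genes averaging 100 CPM or more, and 0 after the correction. Of the other pathway genes, at 2-fold 1 was higher and 3 were lower, and lower genes numbered 10 at a pseudocount of 10 CPM, 3 after the correction and 7 for transcripts of 2000 nt or longer. Centring gave 11 higher and 3 lower of the 36, against 14 and 2, and 11 and 20 of the other pathway genes, against 15 and 16. The co-chaperone median was 0.14 after the correction, against −0.21. The cause of these moves was not tested beyond the genes or rule that a setting changes by construction. A trimmed mean of log ratios moved log2 folds by −0.00112. No paired analysis was possible because there is 1 library per group and no replicate to leave out. Without replicates, variation between cultures is unknown.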
